A study of Mus musculus with 96 samples.

Results

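Genes of activator protein 1 (AP-1) and of the immediate early response were followed in hepatocytes and liver macrophages. They were chosen by symbol, and for each the deposited transcript with the highest mean was used. The 10 members, of 25095 symbols in the tables, were Jun, Junb, Jund, Fos, Fosb, Fosl2, Atf3, Egr1, Ier2 and Maff. RNA-seq had been made from 96 libraries in 32 groups of 3, each group being 1 genotype, 1 cell type and 1 zeitgeber time (ZT, hours after lights on), namely ZT4, ZT10, ZT16 or ZT22 of a cycle of 12 h light and 12 h dark. All mice were male C57BL/6J, carried floxed alleles, were injected as adults with an adeno-associated virus and then ate a high-fat, high-sucrose diet (D12492i) for 4 weeks. Control mice received AAV-TBG-GFP, and the knockouts received AAV-TBG-CRE, in which the TBG promoter limits expression to hepatocytes, so macrophages of a knockout mouse kept their own alleles. RevDKO mice lost both REV-ERB genes (Nr1d1 and Nr1d2) in hepatocytes, RevScapTKO mice lost these and Scap, and ScapKO mice lost Scap alone. The labels' extraction protocol names liver tissue and the study's methods name isolated hepatocytes for the hepatocyte libraries. The ScapKO libraries were normalized in tables of their own and are described only within themselves.

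The members lay at separate loci in mm9, the build of the files. Jun was at chr4:94715727-94718913 (minus strand), Junb at chr8:87500808-87502647 (minus), Jund at chr8:73221638-73224515 (plus), Fos at chr12:86814840-86818224 (plus), Fosb at chr7:19888045-19895394 (minus) and Fosl2 at chr5:32438845-32460212 (plus). Atf3 was at chr1:192994176-193007212 (minus), Egr1 at chr18:35020861-35024610 (plus), Ier2 at chr8:87185230-87186751 (minus) and Maff at chr15:79178832-79189506 (plus). In the gencode vM1 annotation an antisense gene overlapped 3 of them, BC042782 at Jun, Gm11175 at Jund and Gm17507 at Egr1. The counting is not stated to have used strand, so reads of those partners cannot be told apart from the members. Jund was listed with 2 transcripts of the same span, and Maff with 4 transcripts that differ in their starts.

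AP-1 is a family of leucine zipper transcription factors that bind DNA as dimers, most often 1 JUN protein (JUN, JUNB, JUND) with 1 FOS protein (FOS, FOSB, FOSL2). Immediate early genes are transcribed within minutes of a growth factor, a cytokine or stress without new protein synthesis, and in the liver they are known for their rise after partial hepatectomy and during tissue digestion. ATF3 is a stress-induced leucine zipper factor, EGR1 is a zinc finger factor, IER2 is a short-lived nuclear protein, and MAFF is a small MAF factor that pairs with NRF2 and has no activation domain of its own. REV-ERBs are clock repressors, and SCAP is the escort protein that SREBP lipogenic factors need to become active.

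Promoter windows, the 250 bases before an annotated start, were taken from RefSeq (GRCm38.p6) for 8 members, and each was found once on its chromosome in mm9, next to a start in the deposited tables. Egr1 and Ier2 were not analysed here. Both strands were searched for TGANTCA (the AP-1 site), TGACGTCA (the cyclic AMP response element, CRE), the CArG box, CACGTG (the E-box that CLOCK and BMAL1 bind), GCGGGGGCG or GCGTGGGCG (the EGR site) and the RORE (the site of REV-ERB and ROR proteins), and no match overlapped another. Of 10 windows, 7 held no match. The window before Maff NM_010755 held an E-box from -191 to -186, an EGR site from -88 to -80 and a CRE from -29 to -22 relative to the start, whereas the windows before NM_001304832, the Maff transcript with the highest mean in hepatocytes, and before NM_001304830 held none. Fosl2 had an EGR site from -79 to -71 and Fosb one from -50 to -42. Of 32851 RefSeq promoter windows of this length, 6.02% held the E-box, 1.55% the CRE, 3.06% the EGR site, 6.75% the AP-1 site and 0.177% the RORE, and 482 windows held the CArG box. The windows printed are 4, from the member with the largest difference between RevDKO and Control hepatocytes (Maff, at 2 of its starts), the JUN member that was lower in both knockouts (Jund) and the FOS member that was higher in RevScapTKO (Fosl2). They lay at chr15:79177700-79177949, chr15:79178582-79178831, chr8:73221388-73221637 and chr5:32438595-32438844 on the plus strand of mm9. The sequences are given 5′ to 3′, and capitals mark the matches. 
Maff NM_010755: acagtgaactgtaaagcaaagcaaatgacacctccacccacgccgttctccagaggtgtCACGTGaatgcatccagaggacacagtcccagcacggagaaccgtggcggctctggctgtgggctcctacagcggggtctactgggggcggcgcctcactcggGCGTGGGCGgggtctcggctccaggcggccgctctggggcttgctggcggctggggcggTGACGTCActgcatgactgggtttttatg
Maff NM_001304832: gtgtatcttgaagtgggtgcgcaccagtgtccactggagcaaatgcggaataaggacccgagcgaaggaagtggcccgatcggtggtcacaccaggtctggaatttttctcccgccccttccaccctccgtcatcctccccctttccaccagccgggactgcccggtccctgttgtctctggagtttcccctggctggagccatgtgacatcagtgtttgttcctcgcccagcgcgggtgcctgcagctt
Jund: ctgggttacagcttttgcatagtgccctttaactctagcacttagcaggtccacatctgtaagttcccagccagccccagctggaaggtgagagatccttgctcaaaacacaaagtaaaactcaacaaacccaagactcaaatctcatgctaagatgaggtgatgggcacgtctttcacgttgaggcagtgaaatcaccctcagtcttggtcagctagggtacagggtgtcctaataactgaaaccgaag
Fosl2: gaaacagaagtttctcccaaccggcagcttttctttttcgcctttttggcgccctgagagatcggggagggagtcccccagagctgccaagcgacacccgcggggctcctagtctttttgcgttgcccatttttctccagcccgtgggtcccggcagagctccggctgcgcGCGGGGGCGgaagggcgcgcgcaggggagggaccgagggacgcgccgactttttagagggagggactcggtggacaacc

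Levels are given in RPKTM, a unit of reads per kilobase and library size that is 10 times RPKM, after quantile normalization within a table. In the 12 Control hepatocyte libraries, Jun had the highest level (150 ± 79.1, mean ± SD, n = 12), followed by Jund (74.9 ± 13.1), Junb (49.1 ± 44.4), Ier2 (35.0 ± 16.7), Fosl2 (31.0 ± 13.4) and Egr1 (25.1 ± 41.2). Maff (8.08 ± 6.23), Fos (6.87 ± 4.95) and Atf3 (5.84 ± 3.73) were near the filter of 5 RPKTM, and Fosb was listed at 0 in 10 of 12 libraries with a highest value of 1.14. Each mean lay within the larger SD of the pair from its neighbour in this order, except for Atf3 and Fosb. Control macrophages showed Fos at 43.9 ± 37.5 RPKTM and Atf3 at 13.4 ± 9.08, both from a separately normalized table, with Jun at 98.2 ± 59.1, Junb at 70.3 ± 65.5 and Jund at 61.9 ± 41.5. Fosb passed the filter of more than 5 RPKTM in at least 3 libraries in macrophages only, so 9 members were tested in hepatocytes and 10 in macrophages.

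The labels were checked before the members were compared. Nr1d1 averaged 90.7 ± 119 RPKTM in Control hepatocytes and 138 ± 108 in RevDKO hepatocytes, and Nr1d2 228 ± 141 and 312 ± 116, so neither transcript was lower in the libraries labelled RevDKO. The whole-gene value need not fall where part of a gene is deleted, but whether this holds here was not tested. The paper reports a marked reduction of both mRNAs in hepatocytes, which these values did not show. Arntl, a target of REV-ERB repression, was 60.8 ± 45.6 in Control and 139 ± 12.3 in RevDKO hepatocytes, and Scap was 495 ± 73.1 in Control against 209 ± 63.5 in RevScapTKO. All 10 macrophage markers were detected in hepatocyte libraries, with a summed level of 243 to 2948 RPKTM in Control, 358 to 2382 in RevDKO and 918 to 5913 in RevScapTKO. In macrophage libraries of Control, RevDKO and RevScapTKO, the 10 hepatocyte markers summed to 45630 to 3203000 RPKTM, and 3 libraries (Control ZT16 replicate 1, Control ZT22 replicate 1 and RevScapTKO ZT22 replicate 3) stood above the others. The medians of these sums were 108500, 104900 and 117400 RPKTM, above the macrophage marker medians of 15890, 8550 and 9053 in the same libraries. Hepatocyte marker RNA was thus present in every macrophage library, not only in those that stood above. A further 5 macrophage libraries had a median correlation with the other libraries of 0.848 to 0.887, namely Control ZT22 replicate 2 and RevDKO ZT10 replicate 2, ZT16 replicates 1 and 2, and ZT22 replicate 2. In bulk samples, fewer cells of a type and less RNA per cell cannot be told apart.

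In RevDKO hepatocytes 4 of the 9 tested members fell against Control over the mean of the 4 time points (Fos, Ier2, Jund and Maff) and none rose, where 4.43% of 13326 genes were called and 2.43% were called lower (limma, Benjamini-Hochberg adjusted p under 0.05). The log2 difference was below 0 for all 9, with a median of -0.81 against -0.01 for all genes. Differences are on the log2(RPKTM + 1) scale throughout, which understates changes of low genes.

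**Figure D1:**
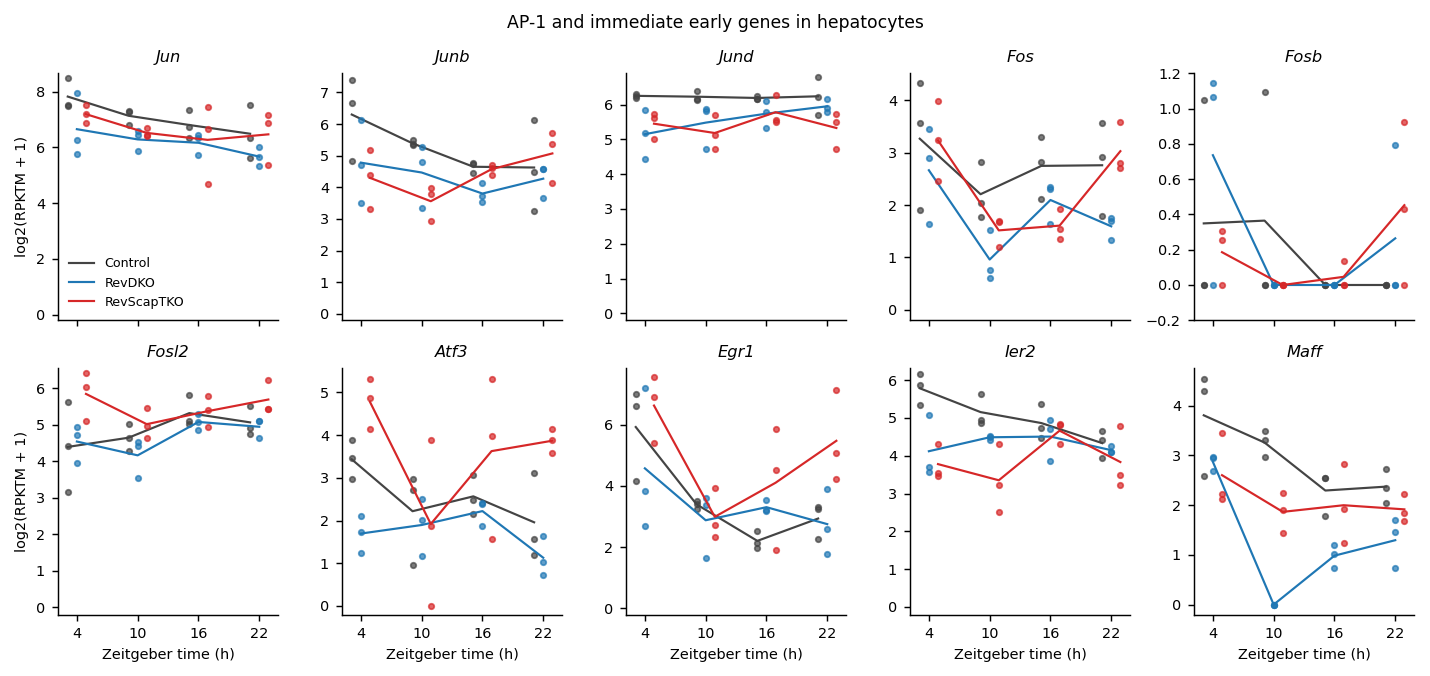
Levels of the 10 members in hepatocytes, as log2(RPKTM + 1) on the vertical axis (its range differs between panels) against zeitgeber time in hours. Points are the 3 libraries of a group, lines join the group means, and the colours are Control, RevDKO and RevScapTKO, set side by side around each time point. Maff in RevDKO is at 0 at ZT10, and Atf3 in RevScapTKO is above RevDKO in all 3 libraries at ZT4 and at ZT22.

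Of the JUN family, Jund moved most evenly. Its level ran from 51.5 to 109 RPKTM (median 72.8, n = 12) in Control and from 20.5 to 70.6 (median 55.0) in RevDKO, and all 12 RevDKO libraries were below the Control median. The log2 difference was -0.65 ± 0.17 (SE), adjusted p = 0.018. Jun, the family's main activator, ran from 47.8 to 354 RPKTM (median 157) in Control and from 39.4 to 246 (median 69.7) in RevDKO, with 11 of 12 RevDKO libraries below the Control median. Its difference of -0.87 ± 0.27 missed the threshold at an adjusted p of 0.059, and 1 RevDKO library, ZT4 replicate 3, stood at 246. Junb ran from 8.52 to 166 RPKTM (median 33.5) in Control and from 9.20 to 69.4 (median 19.7) in RevDKO, a difference of -0.91 ± 0.32 with an adjusted p of 0.11.

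Of the FOS family, Fos fell and Fosl2 did not pass the test. Fos ran from 2.40 to 19.1 RPKTM (median 6.10) in Control and from 0.516 to 9.96 (median 2.2) in RevDKO, where 8 of 12 libraries lay below every Control library. Its difference was -0.92 ± 0.27, adjusted p = 0.042. Leaving out 1 of the 24 libraries of the comparison lost the call of Fos in 16 fits, with differences from -1.09 to -0.78, and that of Ier2 in 16 fits, with differences from -0.84 to -0.64. Fosl2, a stable FOS protein, had a median of 30.6 RPKTM in Control and 26.7 in RevDKO, with a difference of -0.17 ± 0.21 and an adjusted p of 0.75.

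Maff showed the largest difference of the members. In Control it read 5.03, 22.3 and 18.6 RPKTM at ZT4, 10.3, 8.95 and 6.84 at ZT10, 4.88, 4.85 and 2.44 at ZT16, and 4.05, 3.15 and 5.64 at ZT22. In RevDKO it read 6.86, 6.74 and 5.45 at ZT4, was listed at 0 in all 3 libraries at ZT10, and read 1.03, 0.658 and 1.30 at ZT16 and 1.74, 0.658 and 2.25 at ZT22. The groups did not overlap at ZT10, ZT16 or ZT22, whereas at ZT4 the RevDKO values lay inside the Control range. The day mean differed by -1.65 ± 0.23 (adjusted p = 7.3e-06) and stayed past the threshold without any 1 library. ZT10 was the only single time point at which a member was called in this comparison (adjusted p = 2.4e-05 for Maff, with 0.495% of all genes called lower), and no fold is given because the RevDKO group was at 0. Another Maff transcript, NM_001304830, was at 0.433 to 1.12 RPKTM in those 3 libraries, and 7.19 to 9.69 in Control. No member was called at ZT4 (0.585% of all genes), ZT16 (0.3%) or ZT22 (0.488%).

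Ier2 ran from 14.4 to 70.1 RPKTM (median 29.2) in Control hepatocytes and from 10.96 to 32.9 (median 19.3) in RevDKO, a difference of -0.72 ± 0.21 with an adjusted p of 0.041. Atf3 had a median of 6.20 in Control and 2.47 in RevDKO, and all 12 RevDKO libraries were below the Control median, but the difference of -0.81 ± 0.37 had an adjusted p of 0.25. Egr1 had medians of 8.68 and 8.83 RPKTM, and its difference of -0.24 ± 0.46 was within the spread between replicates (adjusted p = 0.86). At ZT10, all 3 RevDKO libraries were below all 3 Control libraries for 6 of 9 members (Jun, Junb, Jund, Fos, Ier2 and Maff), where 9.09% of all genes showed this. The count was 3 of 9 at ZT4 (6.08% of all genes), 3 at ZT16 (7.71%) and 2 at ZT22 (8.18%). The reverse, all 3 above, was seen for Egr1 at ZT16 (6.88% of all genes) and for no member at ZT4 (6.14%), ZT10 (7.97%) or ZT22 (8.08%).

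Against RevDKO, RevScapTKO hepatocytes had higher Atf3, Egr1, Fosl2 and Maff over the day and no lower member, 4 of 9 where 26.2% of all genes were called and 13.5% were called higher. The median log2 difference of the 9 members was 0.52 against -0.03 for all genes. Of these, 3 (Atf3, Egr1 and Fosl2) were not called in RevDKO against Control, and both comparisons share the RevDKO libraries.

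Atf3 rose most. It read 16.8, 28.1 and 38.7 RPKTM in RevScapTKO and 2.30, 1.37 and 3.33 in RevDKO at ZT4, and 10.96, 16.5 and 13.8 against 2.10, 1.03 and 0.658 at ZT22. At ZT10 the RevScapTKO libraries were at 2.64, 0 and 13.9 and overlapped the RevDKO values of 3.01, 1.25 and 4.71. The day mean differed by 1.81 ± 0.37 (adjusted p = 5.4e-04), ZT4 by 3.08 ± 0.74 (adjusted p = 0.0084, where 4.43% of all genes were called higher) and ZT22 by 2.74 ± 0.74 (adjusted p = 0.037, 0.57%). The ZT4 call was lost without RevScapTKO ZT4 replicate 3 and the ZT22 call without any 1 of the 6 libraries of that time point. No member was called at ZT16 (1.37%). All 3 RevScapTKO libraries were above all 3 RevDKO libraries for 2 of 9 members at ZT4 (11.9% of all genes), 2 at ZT10 (8.22%), 2 at ZT16 (8.72%) and 4 at ZT22 (Atf3, Egr1, Fos and Fosl2, 10.6%). All 3 were below all 3 RevDKO libraries for Ier2 at ZT10 (8.04% of all genes) and Jund at ZT22 (12.1%), and for no member at ZT4 (12.2%) or ZT16 (9.62%).

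Egr1 ran from 2.77 to 189 RPKTM (median 27.4) in RevScapTKO and from 2.10 to 145 (median 8.83) in RevDKO hepatocytes, and the ranges overlapped. Its day mean differed by 1.4 ± 0.46 (adjusted p = 0.021), and the call was lost without RevScapTKO ZT16 replicate 3, which stood at 56.9 (a difference of 1.2 with an adjusted p of 0.054). Fosl2 ran from 23.7 to 84.1 RPKTM (median 42.3) against 10.7 to 38.5 (median 26.7), and 8 of 12 RevScapTKO libraries were above every RevDKO library. Its day mean differed by 0.80 ± 0.21 (adjusted p = 0.0058) and ZT4 by 1.3 ± 0.42 (adjusted p = 0.047), a call lost in 15 of 24 fits without 1 library, where the difference ran from 1.01 to 1.68.

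Maff in RevScapTKO read 3.74, 1.73 and 2.74 RPKTM at ZT10, where RevDKO was listed at 0, and was called there (adjusted p = 0.035, with 0.173% of all genes called higher), a call lost without any 1 of the 6 libraries of that time point. Over the day it differed by 0.81 ± 0.23 (adjusted p = 0.0092). The JUN members differed little, with 0.42 ± 0.27 for Jun, 0.04 ± 0.32 for Junb and -0.14 ± 0.17 for Jund, and Fos (0.52 ± 0.27) and Ier2 (-0.41 ± 0.21) also missed the threshold.

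Markers of other cell types moved with this comparison. The summed level of 10 macrophage markers had a median of 1068 RPKTM in RevDKO and 2762 in RevScapTKO hepatocytes, that of 6 stellate cell markers 1116 (669 to 1700) and 2439 (1429 to 3386), and that of 6 endothelial markers 1195 (704 to 1860) and 1921 (1106 to 2772), and no marker of these 3 lists was at 0 throughout. With the mean macrophage marker level of each library as a covariate, 0 of 9 members were called by limma and 368 genes in all. The differences were then 1.46 ± 0.50 for Atf3 (adjusted p = 0.13), 0.54 ± 0.59 for Egr1 (0.78), 0.44 ± 0.28 for Fosl2 (0.55) and 0.82 ± 0.31 for Maff (0.21). Neutrophil markers summed to at most 13.2 RPKTM in RevScapTKO and lymphocyte markers to at most 6.23, and Ly6g was at 0 there. Cholangiocyte markers had medians of 28.5 RPKTM in RevDKO and 104 in RevScapTKO.

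Against Control, RevScapTKO hepatocytes had 4 members lower (Ier2, Jund, Junb and Maff) and 3 higher (Atf3, Egr1 and Fosl2), 7 of 9 where 35.9% of all genes were called, 17.3% higher and 18.7% lower. Ier2 ran from 4.74 to 27.8 RPKTM (median 14.7), all 12 libraries being below the Control median, and differed by -1.13 ± 0.21 (adjusted p = 1.1e-04). Jund ran from 25.5 to 77.2 (median 45.2), with 9 of 12 libraries below every Control library, and differed by -0.79 ± 0.17 (adjusted p = 5.2e-04). Maff differed by -0.84 ± 0.23 (adjusted p = 0.0048) and Junb by -0.87 ± 0.32 (adjusted p = 0.032). Atf3 differed by 1.0 ± 0.37 (adjusted p = 0.033), Egr1 by 1.18 ± 0.46 (adjusted p = 0.042) and Fosl2 by 0.63 ± 0.21 (adjusted p = 0.021). Leaving out 1 library lost the call of Egr1 in 13 of 24 fits, of Atf3 in 10, of Junb in 7 and of Fosl2 in 1. At ZT4, Fosl2 was called higher (1.45 ± 0.42, adjusted p = 0.017, with 9.27% of all genes higher), and Junb (-2.0 ± 0.63, 0.027) and Ier2 (-2.01 ± 0.42, 0.0017) lower (9.61%). At ZT10 Ier2 was called lower (-1.80 ± 0.42, 0.0083, with 2.33% of all genes lower), and no member was called at ZT16 (3.24%) or ZT22 (3.62%). With the macrophage marker covariate 833 of 13326 genes were called, against 4789 without it, so lost calls were not particular to the members. Jund (-1.14 ± 0.22, adjusted p = 0.0010) and Junb (-1.53 ± 0.42, 0.023) kept their calls in that fit, and Maff (-0.83 ± 0.33, 0.14) and Ier2 (-0.95 ± 0.30, 0.052) lost theirs. The 3 higher members were at 0.62 for Atf3, 0.23 for Egr1 and 0.23 for Fosl2 in that fit and were not called.

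**Figure D2:**
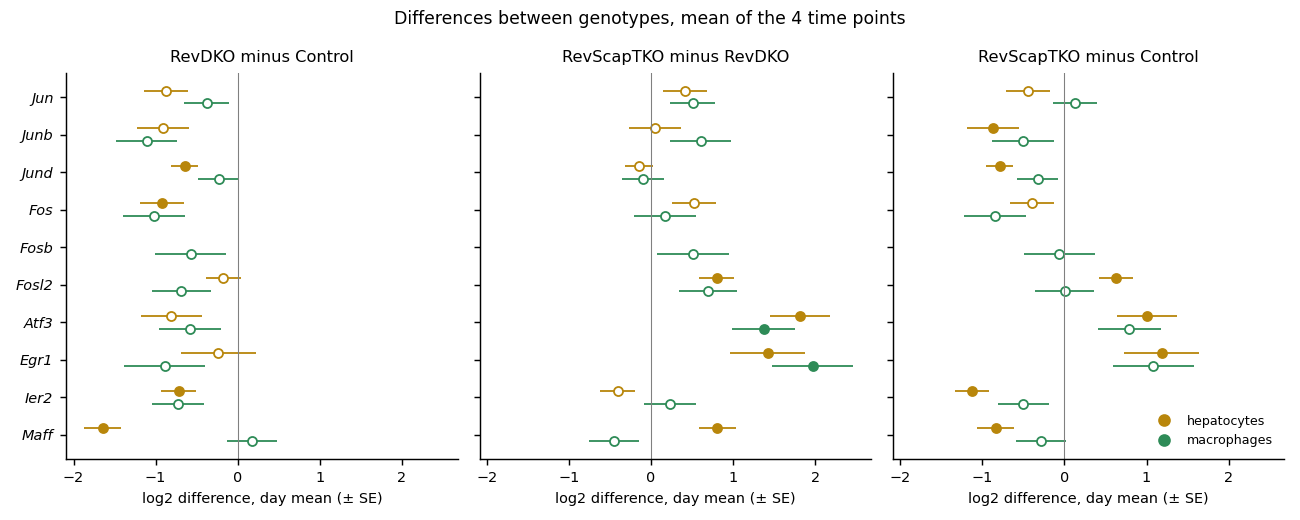
Log2 difference of the mean over 4 time points on the log2(RPKTM + 1) scale, with its SE as a bar, for each member and 3 comparisons of genotypes, in hepatocytes and macrophages. Filled points passed limma's adjusted p of 0.05 and open points did not. In RevDKO minus Control all 9 hepatocyte points lie left of 0, and in RevScapTKO minus RevDKO the points of Atf3 and Egr1 lie right of 0 in both cell types.

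In liver macrophages, whose genes were not targeted, no member was called in RevDKO against Control, where 0.574% of 13947 genes were called. At an unadjusted p under 0.05 there were 3 members (Fos, Ier2 and Junb), all lower, and 9 of 10 differences were below 0, with a median of -0.63 against -0.04 for all genes. The share of all genes at an unadjusted p under 0.05 is not given here or below. Such counts are therefore not read as results about the members. Fos ran from 6.99 to 135 RPKTM (median 29.4) in Control and from 3.17 to 66.8 (median 13.6) in RevDKO, a difference of -1.01 ± 0.38 with an adjusted p of 0.24. Without Control ZT22 replicate 3, which had the lowest macrophage marker sum of the macrophage libraries (2954 RPKTM) and Fos at 6.99 beside 135 and 81.1 in its group, Fos was called (-1.32, adjusted p = 0.018), as were Fosb, Junb and Fos at ZT22, where no member and 0% of genes were called with all libraries (4 members at an unadjusted p under 0.05, limma). Of the 24 fits that left out 1 library, this was the only 1 in which any member was called. The share of all genes called in it is not given, so these calls are not read as results about the members. With all libraries, Junb differed by -1.11 ± 0.37 (adjusted p = 0.19) and Ier2 by -0.73 ± 0.32 (adjusted p = 0.30). Maff, the member that differed most in hepatocytes, had medians of 2.64 and 3.60 RPKTM here and a difference of 0.17 ± 0.30. The difference between cell types was not tested. No member was called at a single time point, where 0.00717% of all genes were called at ZT4, 0.0789% at ZT10, 0.043% at ZT16 and 0% at ZT22.

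RevScapTKO macrophages had higher Egr1 and Atf3 than RevDKO macrophages over the day, 2 of 10 where 3% of all genes were called and 1.23% were called higher. Atf3 ran from 8.45 to 28.8 RPKTM (median 16.5) in RevScapTKO and from 0 to 16.1 (median 6.32) in RevDKO, and all 12 RevScapTKO libraries were above the RevDKO median. It differed by 1.37 ± 0.38 (adjusted p = 0.039), a call lost in 16 of 24 fits without 1 library (1.1 to 1.6). Egr1 ran from 2.13 to 51.0 (median 13.6) against 0 to 37.4 (median 4.20), a difference of 1.97 ± 0.49 (adjusted p = 0.019), and 4 RevDKO libraries were listed at 0. Without the 5 libraries of low correlation, 4 of them RevDKO, neither was called, at 1.34 ± 0.38 (adjusted p = 0.055) for Atf3 and 1.12 ± 0.43 (adjusted p = 0.22) for Egr1. Without the 3 libraries high in hepatocyte markers both were called, at 1.46 (adjusted p = 0.010) and 1.82 (adjusted p = 0.028). Macrophage marker sums had medians of 8550 RPKTM in RevDKO and 9053 in RevScapTKO, and 15890 in Control.

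At ZT22 all 3 RevScapTKO macrophage libraries were above all 3 RevDKO libraries for 6 of 10 members (Jun, Junb, Fos, Fosl2, Atf3 and Egr1), where 6.45% of all genes showed this. Fosl2 read 54.6, 43.7 and 43.4 RPKTM there against 23.5, 0 and 26.8, and Junb 34.1, 29.6 and 74.6 against 24.8, 0.028 and 7.63. The lowest RevDKO values were those of replicate 2, a library that stood apart, and no member was called at any single time point, where 0.151% to 0.301% of genes were called. The count was 0 of 10 at ZT4 (6.27% of all genes), 2 at ZT10 (4.37%) and 1 at ZT16 (5.72%). In the other direction, all 3 RevScapTKO libraries were below all 3 RevDKO libraries for Ier2 and Maff at ZT4 (5.39% of all genes), and for no member at ZT10 (5.54%), ZT16 (6.09%) or ZT22 (7.79%). Against Control, RevScapTKO macrophages had no member called (3.76% of all genes), and 3 were at an unadjusted p under 0.05, namely Fos at -0.84 ± 0.38, Egr1 at 1.08 ± 0.49 and Atf3 at 0.79 ± 0.38. Fos was called there without Control ZT22 replicate 3 (-1.15, adjusted p = 0.024), the only 1 of 24 such fits with a member called. The share of all genes called in that fit is not given. At single time points no member was called (0.33% of all genes at ZT4, 0.201% at ZT10, 0.186% at ZT16 and 0.136% at ZT22).

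**Figure D3:**
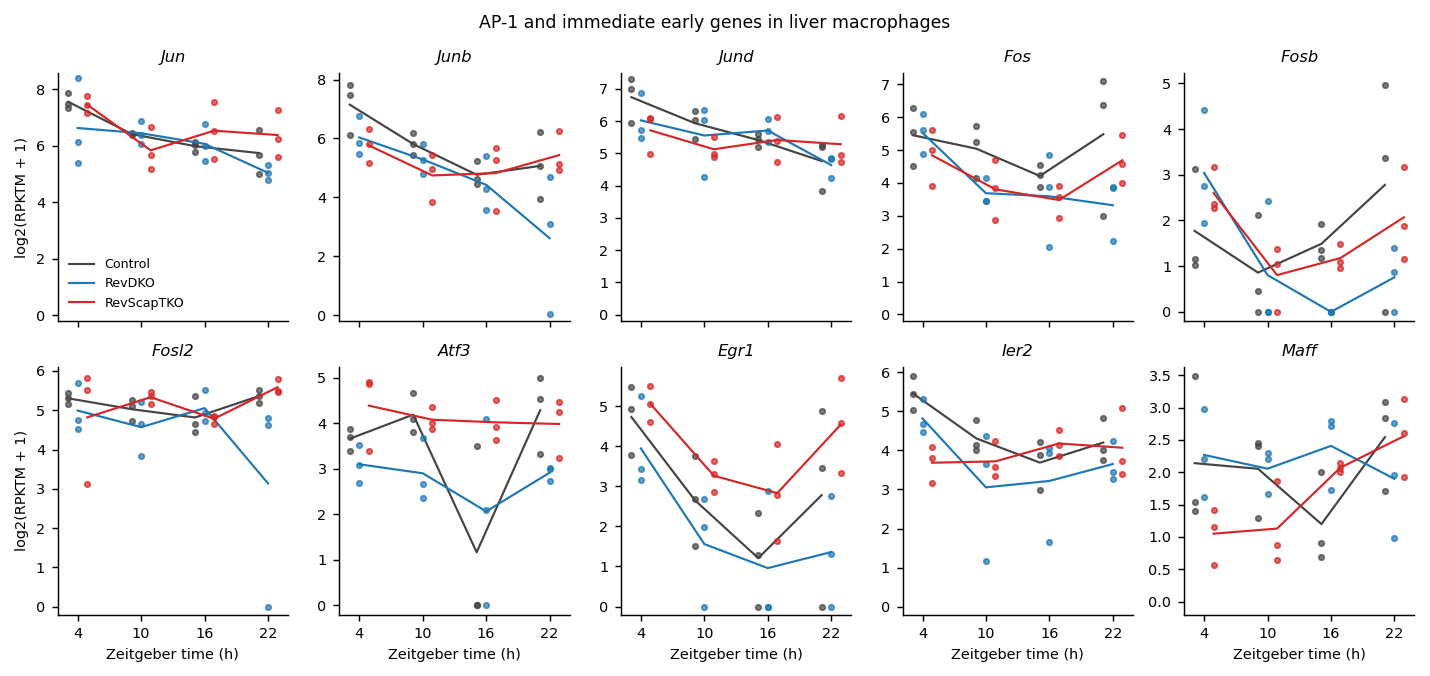
Levels of the 10 members in liver macrophages, as log2(RPKTM + 1) against zeitgeber time in hours, with 3 libraries per group as points and group means joined by lines in Control, RevDKO and RevScapTKO. Ranges of the vertical axis differ between panels. The RevDKO means of Junb, Fosl2 and Egr1 are the lowest of the 3 genotypes at ZT22.

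Rhythms over the day were sought with JTK_CYCLE, a rank test against cosine orders, with the 4 time points entered 2 times as the study describes. This makes p-values smaller without adding data, so each count is given beside that with the series entered once. Calls needed a best period of 24 h, an adjusted p under 0.05 and a highest time mean above 1.5 times the lowest. The JTK_CYCLE p was adjusted over the 7 patterns tried for a gene and not over genes, unlike the limma p. In Control hepatocytes 6 members were called rhythmic (Jun, Junb, Fosl2, Egr1, Ier2 and Maff), with 28.2% of all genes called, and 1 (Egr1) with the series entered once, with 8.89%. Egr1 read 16.8, 95.9 and 128 RPKTM at ZT4, 8.55, 10.5 and 9.66 at ZT10, 2.94, 3.35 and 4.72 at ZT16, and 8.81, 8.50 and 3.79 at ZT22. All ZT4 values were above all others, and its highest time mean was 21.9 times its lowest (JTK_CYCLE adjusted p = 1.1e-07, or 0.0011 entered once, exact). The limma F test of time also called Egr1 (adjusted p = 0.037), with 6.61% of all genes called, and in RevDKO hepatocytes it called Maff (adjusted p = 0.0066, 2.48%), which JTK_CYCLE did not (adjusted p = 0.058).

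The best fitting peak of Jun, Junb, Egr1 and Maff in Control hepatocytes was ZT4, that of Ier2 ZT10 and that of Fosl2 ZT16, in steps of 6 h. This peak is that of the best rank pattern, and the mean of Ier2 was highest at ZT4 (55.6 RPKTM, and 35.7 at ZT10). In RevDKO hepatocytes 2 members were called rhythmic (Jun and Fosl2, with 28.9% of all genes) and none entered once (8.27%). Egr1 there read 13.2, 5.48 and 145 RPKTM at ZT4, so 1 library set its ZT4 mean, and its JTK_CYCLE adjusted p was 0.86. In RevScapTKO hepatocytes 2 were called (Junb and Fos, 20.6%) and none entered once (3.53%), and Egr1 read 41.5, 189 and 117 at ZT4 with an adjusted p of 0.079. Entered once, Fos there had a JTK_CYCLE adjusted p of 0.0076 but a best period other than 24 h. A loss of rhythm was not shown by these counts: the test of the change itself, the difference of the 24 h cosine and sine terms between genotypes, called no member in either cell type. The lowest adjusted p was 0.59 for RevDKO against Control and 0.94 for RevScapTKO against RevDKO in hepatocytes, where 0.203% and 0% of all genes were called (0.188% and an adjusted p of 0.36 for RevScapTKO against Control), and 1 and 2 members were at an unadjusted p under 0.05. In macrophages the lowest adjusted p was 0.89 and 0.998, where 0% of all genes were called in each, with 1 and 2 members at an unadjusted p under 0.05.

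Macrophages of Control mice had 5 rhythmic members (Jun, Junb, Jund, Egr1 and Ier2, where 20.3% of all genes were called), all with a best peak at ZT4, and 4 of them with the series entered once (3.13%). Jun read 174, 162 and 229 RPKTM at ZT4 and 69.3, 54.1 and 63.8 at ZT16, and Egr1 read 12.8, 43.6 and 29.3 at ZT4 and 4.08, 0 and 1.4 at ZT16. In both genes the ZT4 and ZT16 groups did not overlap. RevDKO macrophages had 7 (Jun, Junb, Jund, Fos, Fosb, Egr1 and Ier2, 27.9%), of which Jun and Fosb passed entered once (4.72%), and RevScapTKO macrophages 5 (Fos, Fosb, Fosl2, Egr1 and Maff, 15.5%), of which none passed entered once (2.61%). Entered once, Fosb and Egr1 in RevScapTKO macrophages had a JTK_CYCLE adjusted p of 0.030 each but a best period other than 24 h. The limma F test of time called 1 member in macrophages, Junb in RevDKO (adjusted p = 0.030, with 2.82% of all genes called), and none in Control or RevScapTKO macrophages (0.0645% each) or in RevScapTKO hepatocytes (0.87%).

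In ScapKO mice, hepatocyte levels are on the scale of their own table, with Jun at 499 ± 180 RPKTM (n = 12), Jund at 257 ± 71.3, Junb at 140 ± 42.7, Egr1 at 107 ± 51.8, Ier2 at 103 ± 27.7 and Fosl2 at 83.6 ± 74.4. Atf3 (24.8 ± 16.6), Maff (23.4 ± 11.3) and Fos (19.0 ± 10.2) were lower and Fosb (1.53 ± 2.92) near 0. ScapKO macrophages showed Jund at 451 ± 119, Jun at 427 ± 178, Fosl2 at 363 ± 171, Junb at 330 ± 53.0 and Fos at 210 ± 100. Replicate 2 at ZT22 had the highest Fosl2 of its group in both cell types, at 310 RPKTM in hepatocytes beside 41.9 and 120, and at 872 in macrophages beside 278 and 385, and in macrophages its median correlation with the other libraries was the lowest of the 12. In ScapKO hepatocytes 3 members were called rhythmic (Junb, Atf3 and Egr1, 18.6% of all genes) and 4 in macrophages (Jun, Jund, Atf3 and Maff, 21.7%). Without that library the counts were 2 and 3, and without replicate 1 at ZT22 they were 6 (Junb, Fos, Fosl2, Atf3, Egr1 and Maff) and 5 (Jun, Jund, Fosl2, Atf3 and Maff). None passed with the series entered once (5.35% and 4.48% of all genes), and the limma F test of time called no member (164 of 12724 genes in hepatocytes and 0 in macrophages, with 2 members at an unadjusted p under 0.05 in each). Entered once, Jun and Jund in ScapKO macrophages had JTK_CYCLE adjusted p of 0.015 and 0.030 but a best period other than 24 h.

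**Figure D4:**
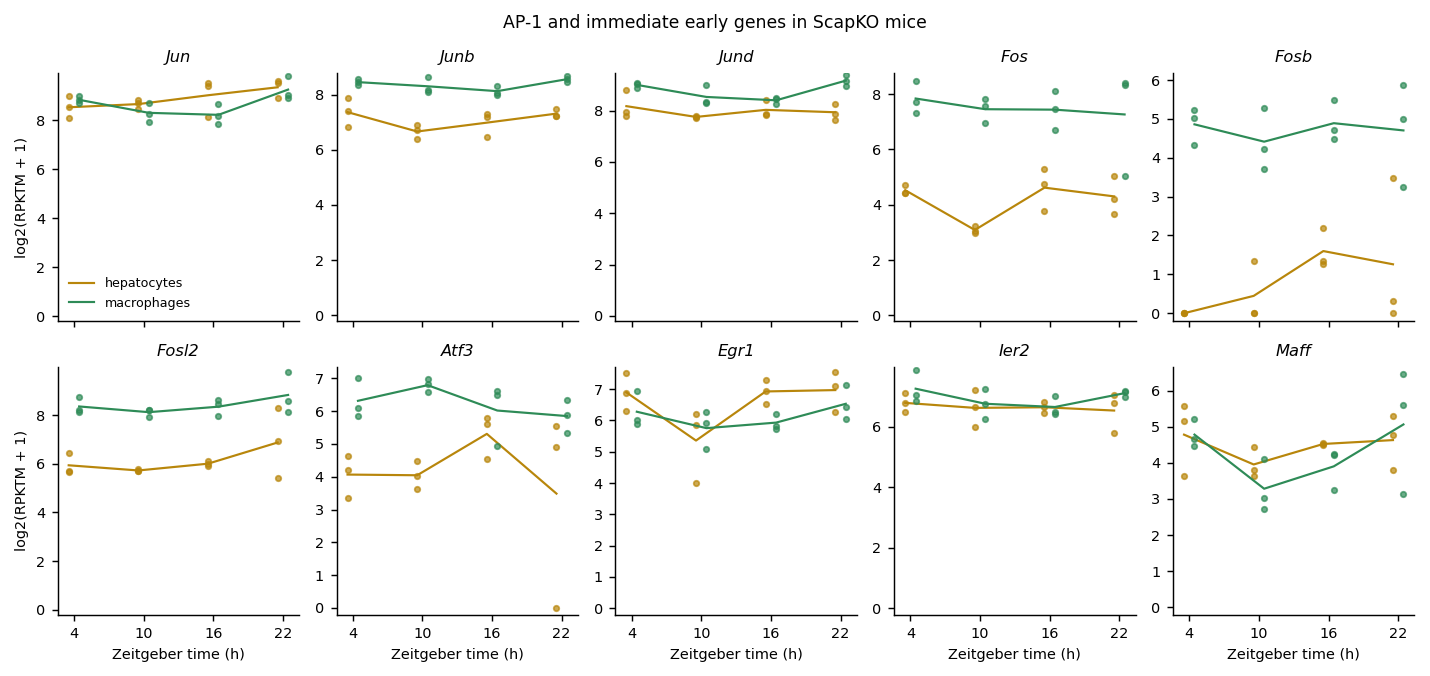
Levels of the 10 members in ScapKO mice, as log2(RPKTM + 1) against zeitgeber time in hours, with 3 libraries per group as points and group means joined by lines in hepatocytes and macrophages, each from its own table. Fosl2 has 1 high point at ZT22 in each cell type, 310 RPKTM in hepatocytes and 872 in macrophages.

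Libraries of the same group differed widely in these genes. In hepatocytes the SD about the group mean was 1.25 on the log2 scale for Egr1, 0.98 for Atf3, 0.86 for Junb and 0.73 for Jun, against medians of 0.46, 0.63, 0.40 and 0.28 among the 500 genes nearest in mean level. These put Jun, Egr1, Junb, Atf3 and Fosl2 at percentiles of 92.2 to 99.4 among those genes, whereas Fos was at 46.2 and Maff at 5.8. In macrophages Egr1 was at 97.4, Junb at 94.4, Fos at 90.4 and Maff at 2.0. With a pseudocount of 10 in place of 1, Maff in hepatocytes was at 51.6 and Fos at 84.8, so these 2 positions depend on the pseudocount.

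**Figure D5:**
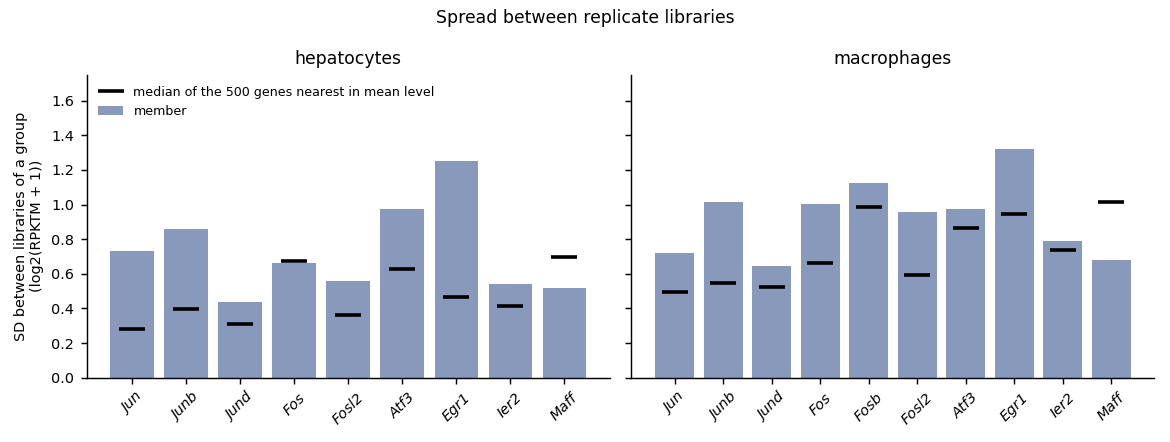
SD between libraries of the same group on the log2(RPKTM + 1) scale for each member (bars) in hepatocytes and macrophages, with the median SD of the 500 genes nearest in mean level as a black line. Egr1 has the tallest bar in both cell types, and Maff lies below its line in both.

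Within groups, libraries high in Fos tended to be high in some other members in hepatocytes. How many of all genes relate to Fos in this way was not computed, so the relation is not read as particular to the members. The deviation from the group mean of Fos correlated with that of Junb (Pearson r = 0.71, adjusted p = 0.0093; Spearman rho = 0.60, adjusted p = 0.016), Egr1 (r = 0.60, 0.0093; rho = 0.60, 0.0097), Jund (r = 0.49, 0.030; rho = 0.49, 0.037) and Atf3 (r = 0.49, 0.0049; rho = 0.65, 0.0063) over 36 libraries, by 100000 two-sided permutations of libraries within groups, with p adjusted over the 17 relations of both cell types. Without the 2 libraries farthest from the median of Fos these r were 0.62, 0.48, 0.46 and 0.50. Jun (r = 0.46, adjusted p = 0.055) and Ier2 (r = 0.45, 0.054) missed the threshold, and Fosl2 (0.05) and Maff (0.18) were near 0. In macrophages only Fosb passed (r = 0.66, permutation adjusted p = 0.0093; rho = 0.57, 0.016; r = 0.58 without the 2 libraries), and Jund was at r = -0.36 (adjusted p = 0.15). Libraries of a group share their genotype and time. The labels do not give the day of dissection, and the paper states that livers were collected together to limit batch effects. Whether libraries of a group differ in batch is therefore not known, and the relation within batches cannot be given.

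Other genes of the pathway were counted from lists. Of 18 tested immediate early genes beside the members, 1 was lower in RevDKO than in Control hepatocytes (Trib1, a pseudokinase that promotes decay of C/EBP factors, 99.8 ± 21.3 against 141 ± 29.7 RPKTM, adjusted p = 0.016) and none higher, where 2.43% of all genes were called lower. Higher in RevScapTKO than in RevDKO hepatocytes were 4, where 13.5% of all genes were called higher, Klf6 (88.7 ± 55.5 against 31.8 ± 12.2, adjusted p = 0.0011), Ier5 (28.6 ± 14 against 13.6 ± 3.54, 0.0026), Myc (27.1 ± 21.2 against 11.8 ± 14.8, 0.0088) and Rhob (46.4 ± 12.6 against 31.8 ± 9.46, 0.0090). Against Control, where 17.3% of all genes were called higher and 18.7% lower, 3 were higher and 2 lower in RevScapTKO, among them Zfp36, which promotes mRNA decay, at 208 ± 88.2 against 398 ± 176 RPKTM (adjusted p = 6.2e-04), and Sgk1 at 172 ± 103 against 87.3 ± 42.4 (0.0040). The macrophage, stellate and endothelial marker levels were higher in RevScapTKO hepatocytes, as given above for the members. With the macrophage marker covariate, limma called none of the 18 in RevScapTKO against RevDKO, Trib1 alone in RevDKO against Control, and Trib1 and Zfp36, both lower, in RevScapTKO against Control. That fit called 368, 705 and 833 of 13326 genes in these 3 comparisons. In macrophages 1 of 19 was called, where 1.23% of all genes were called higher, Myc in RevScapTKO against RevDKO (28.1 ± 15.5 against 13.5 ± 12.7, 0.027), and with the hepatocyte marker covariate Plk3 was called there and Myc was not.

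The MAPK phosphatases, which switch off the kinases that activate AP-1, had 2 of 6 tested members lower in RevDKO than in Control hepatocytes (2.43% of all genes) and 3 of 6 higher in RevScapTKO than in RevDKO (13.5%). Dusp6, the phosphatase of ERK, fell in RevDKO (87.8 ± 37.1 against 191 ± 80.9 RPKTM, adjusted p = 5.5e-05) and Dusp10 fell (9.73 ± 2.71 against 16.9 ± 3.34, 0.0027). Higher in RevScapTKO were Dusp8 (18.9 ± 15.0 against 1.32 ± 1.4, 3.4e-06), Dusp10 (20.6 ± 8.17 against 9.73 ± 2.71, 4.8e-05) and Dusp16 (232 ± 91.0 against 174 ± 31.8, 0.014), and against Control Dusp8 and Dusp16 were higher and Dusp6 lower, 3 of 6 where 35.9% of all genes were called. With the macrophage marker covariate Dusp8 was the 1 phosphatase called in RevScapTKO against RevDKO, Dusp6 and Dusp10 were called lower in RevDKO, and Dusp8 (higher) and Dusp6 (lower) were called in RevScapTKO against Control. In macrophages, Dusp8 (7.16 ± 5.89 against 0.293 ± 0.494, 7.1e-04) and Dusp16 (35.7 ± 8.13 against 22 ± 8.3, 0.016) were higher in RevScapTKO than in RevDKO, 2 of 8 where 1.23% of all genes were, and both kept their calls with the hepatocyte marker covariate.

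Of 7 other AP-1 leucine zipper genes tested in hepatocytes, none was called in RevDKO against Control, and Maf was higher in RevScapTKO than in RevDKO (160 ± 53.1 against 102 ± 30.1 RPKTM, adjusted p = 0.0054), 1 of 7 where 13.5% of all genes were. Against Control, Maf was also higher (160 ± 53.1 against 100.2 ± 25.6, 0.0033), and none of 11 was called in macrophages. Of 18 kinases and factors upstream, none was called in RevDKO hepatocytes, and 3 were higher in RevScapTKO than in RevDKO (13.5% of all genes), Mef2a (196 ± 27.8 against 146 ± 19.2, 5.8e-04), Map3k1 (185 ± 83.5 against 115 ± 22, 0.018) and Mef2d (134 ± 26.3 against 102 ± 35.6, 0.042). Against Control 5 were higher and 1 lower, 6 of 18 where 35.9% of all genes were called, and none was called in macrophages. With the macrophage marker covariate none of the 7 and none of the 18 was called by limma in hepatocytes.

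Heat shock genes that rise when tissue is digested were described because these cells were isolated from dissociated liver. Of 8 tested in hepatocytes none was called in RevDKO against Control. In RevScapTKO against RevDKO, Hspa8 was higher (1102 ± 215 against 636 ± 493 RPKTM, adjusted p = 0.0010) and Hspe1 lower (69.3 ± 24 against 101 ± 30.4, 0.0090), 2 of 8 where 26.2% of all genes were called, and against Control 1 was higher and 3 lower (35.9%). With the macrophage marker covariate Hspa8 was called in RevScapTKO against RevDKO and no other gene of the list in these comparisons. In macrophages, 1 of 9 was called, Hspa8 in RevScapTKO against RevDKO (381 ± 117 against 209 ± 116, 0.0085), and with the hepatocyte marker covariate Hspe1 was called lower there and Hspa8 was not called. The summed level of the 9 genes ran from 882 to 2206 RPKTM in Control, 877 to 3144 in RevDKO and 1367 to 2440 in RevScapTKO hepatocytes, and its part in the members' differences was not tested.

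The genes whose level most resembled the mean standardized level of the members over the 36 hepatocyte libraries were Setd1b (Pearson r = 0.73), Btg2 (0.72), Osgin1 (0.71), Cul7 (0.69) and 1700094J05Rik (0.69). Over the 36 macrophage libraries they were Slc8b1 (0.75), Zfp36 (0.74), Arap1 (0.72), Stxbp2 (0.67) and Dennd4b (0.65). Of these, Btg2 and Zfp36 were on the list of other immediate early genes.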

How the data were processed

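Bulk RNA-seq of isolated hepatocytes and liver macrophages (TruSeq Stranded Total RNA after rRNA removal) was aligned to mm9 with STAR and counted over RefSeq genes with Homer by the authors (versions not given in the sources used here). The authors deposited 4 tables of 42322 transcripts in RPKTM, a unit of 10 times RPKM, quantile normalized within each table (every column of a table holds the same sorted values). Depth is unknown, and the precision rests on 3 libraries per group. The replicates are called biological without naming separate mice, so p-values measure the spread between these libraries. Titles gave the cell type where a cell type label differed from them.

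The transcript with the highest mean stood for each symbol. log2(RPKTM + 1) was fitted with limma 3.58.1 (R 4.3.3) as 12 group means with an intensity trend, over genes above 5 RPKTM in at least 3 libraries, with Benjamini-Hochberg adjustment over all genes (threshold 0.05). JTK_CYCLE was rewritten in Python 3.11.15 (periods 18 and 24 h, 7 patterns, at least 2 libraries above 5 RPKTM, highest over lowest time mean above 1.5). Its p was multiplied by the number of patterns and not adjusted over genes, and a call needed a best period of 24 h. The scripts were tested on simulated data. Same-numbered libraries of different genotypes were not treated as pairs, since their deviations did not correlate above 0.1 in every pair. Alternatives were other pseudocounts, filters, transcripts, weights, covariates and left-out libraries. Members and lists were chosen with earlier results of these data known. Named were all members, up to 4 genes of each list with the smallest adjusted p past the threshold, the 5 genes most like the members, and the targeted genes. Protein sequences were not analysed here. A result on a further list gene is not reported here.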

Additional observations from a re-analysis of the deposited data

How the results depend on the processing

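Counts are of members called. The number of all genes called also changes with the setting, so a changed count is not read as a result about the members. The same-numbered libraries were not treated as pairs between genotypes. In each comparison 3 to 8 of 12 same-numbered correlations were above 0.1, with medians of 0.02 to 0.14. Of 12 libraries, 6 to 8 correlated best with their own number, so a weak pairing is not settled by these values. With a replicate block, RevDKO minus Control had 2 calls at single time points in hepatocytes in place of 1, and RevScapTKO minus RevDKO had 1 over the day in macrophages in place of 2. With RevDKO minus Control in hepatocytes, the day count of 4 was 2 with no filter, and the single time point count of 1 was 2 with a pseudocount of 10, with array quality weights or with only the 2 genotypes fitted. With quality weights, the genes called numbered 130 at ZT4, 1248 at ZT10, 169 at ZT16 and 137 at ZT22. The main fit called 78, 158, 40 and 65 of 13326. The changed rhythm count of 0 was 1 (Maff) with a pseudocount of 0.1 or quality weights. All genes called for changed rhythm were then 21 and 119, and 27 in the main fit. With RevScapTKO minus RevDKO in hepatocytes, the day count of 4 and the single time point count of 4 were 0 with the marker covariate, and the latter was 2 with a pseudocount of 0.1 or 10, with no filter or with 2 genotypes fitted. With RevScapTKO minus Control in hepatocytes, the day count of 7 was 2 with the covariate and 4 where no filter was set. Over the day, the covariate fits of these 2 comparisons called 368 and 833 of 13326 genes, in place of 3498 and 4789. In macrophages, the day count of 2 for RevScapTKO minus RevDKO was 0 with a pseudocount of 0.1 or without the 5 libraries of low correlation, and 1 unfiltered or under the marker covariate, and its single time point count of 0 was 1 with the marker covariate and 2 with quality weights. RevScapTKO minus Control went from 0 to 1 with the covariate (Egr1) or quality weights (Fos). The causes were not tested.

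Leaving out each library in turn gave 2 to 6 and 1 to 2 calls for RevDKO minus Control in hepatocytes (day, single time points), 3 to 5 and 2 to 4 for RevScapTKO minus RevDKO, and 4 to 7 for RevScapTKO minus Control over the day. In macrophages it gave 0 to 1 and 0 to 3, 1 to 2 and 0 to 1, and 0 to 1. Changed rhythm stayed at 0.

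Rhythm counts in hepatocytes of Control, RevDKO, RevScapTKO and ScapKO mice (6, 2, 2 and 3) were 1, 0, 0 and 0 with the series entered once and 1, 1, 0 and 0 by limma. In macrophages (5, 7, 5 and 4) they were 4, 2, 0 and 0 entered once and 0, 1, 0 and 0 by limma. Leaving out 1 library gave 3 to 6, 1 to 4, 2 to 5 and 1 to 6 in hepatocytes and 5 to 6, 2 to 7, 2 to 5 and 3 to 6 in macrophages. The members' median percentile of spread was 87.0 among genes of like level and 78.7 among all genes. Relations with Fos past the threshold numbered 5, 4 with a pseudocount of 10 and 6 without 2 libraries. No called difference of a member changed its sign. The alternatives without the libraries that stood apart, and the marker covariate for the lists of other genes, were chosen after seeing the data. Unknown depth limits every value near 0.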

Other observations

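Libraries with the same number, genotype and time point in hepatocytes and macrophages deviated together from their group means in some members. How many of all genes do so was not computed, so this is not read as particular to the members. Over 36 libraries the Pearson r was 0.68 for Jun (permutation p = 0.0078, adjusted over 9 members 0.032), 0.48 for Junb (0.0058, adjusted 0.032), 0.44 for Egr1 (0.011, adjusted 0.032) and 0.52 for Jund (0.026, adjusted 0.059). The Spearman rho was 0.50, 0.55, 0.47 and 0.50, with adjusted permutation p of 0.056, 0.037, 0.056 and 0.056. Without the 2 libraries farthest from the median in hepatocytes, r was 0.55, 0.39, 0.43 and 0.40. Fos (r = 0.0019), Fosl2 (-0.02), Maff (0.13), Atf3 (0.15) and Ier2 (0.23) did not pass the test (adjusted permutation p of 0.36 to 0.99). RevDKO ZT4 replicate 3 was the highest of its group for Jun in both cell types, at 246 RPKTM in hepatocytes beside 75.3 and 53.1, and at 332 in macrophages beside 68.2 and 40.5, and for Egr1, at 145 beside 13.2 and 5.48, and at 37.4 beside 9.74 and 7.87. The labels do not say whether equal numbers mark the same mouse. Macrophage libraries also held hepatocyte marker RNA, and its part in these relations was not tested.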
